A study of Bos taurus with 10 samples.

Results

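Expression of the enzymes that make serine, turn it into glycine and move its carbon onto folate was followed in bovine mammary tissue. The genes were PHGDH, PSAT1, PSPH, SHMT1, SHMT2, MTHFD1, MTHFD2, MTHFD1L and ALDH1L1. All probe sets whose only symbol in the platform annotation was one of these 9 genes were taken, which gave 15 of the 24016 probe sets and 9 of the 9155 named genes of the array. PSAT1 was measured by 3 probe sets, PSPH by 2, MTHFD2 by 4 and each of the other genes by a single one. The genes were chosen by their place in the pathway at a time when their differences between neighboring and healthy udder glands were already known, and the choice used them. The differences of these 9 genes are therefore a description, given with their errors. Counts of those past the threshold of the fit are given beside the share of all probe sets past it, and are not a test of these genes.

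The bovine udder consists of separate glands that do not exchange milk. The neighboring group held 5 cows in which another gland of the udder was inoculated with 500 CFU of E. coli 1303, a bovine mastitis isolate, in 2 ml of saline, and the glands sampled had received no bacteria. The healthy group held 5 untreated cows. All 10 animals were primiparous German Holstein Frisian cows in mid lactation, synchronized with cloprostenol and milked out with oxytocin beforehand, and tissue was taken 24 h after inoculation in the neighboring group and 24 h after the onset of estrus in the healthy group. Each cow is represented here by 1 Affymetrix bovine array, and for the healthy cows this was a repeat hybridization. Most samples were pools of 2 glands, and neighboring pools mixed saline-treated with untreated glands, while neighboring 4 (untreated tissue), healthy 3 and healthy 5 came from a single gland each. The saline gland and the infection elsewhere in the udder therefore cannot be told apart in the pools. Values are log2 intensities per probe set after RMA (robust multi-array average, in which the signals of all arrays are brought to a common distribution).

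Serine is made in the cytosol from phosphoglycerate, an intermediate of glycolysis, by the successive action of PHGDH, PSAT1 and PSPH. Serine hydroxymethyltransferases (SHMT1 in the cytosol, SHMT2 mainly in mitochondria) split it into glycine and a carbon unit that is loaded onto folate. In mitochondria MTHFD2 oxidizes this unit and MTHFD1L releases it as formate, and in the cytosol MTHFD1 reloads formate onto folate for purine, thymidylate and methionine synthesis. ALDH1L1 ends the cytosolic chain by burning the unit to carbon dioxide. In the lactating gland serine is also a building block of the caseins, whose phosphate groups sit on serine.

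The fit used 8 arrays, following the methods of the study, which excluded neighboring 5 (called a biological outlier) and healthy 3 (called a technical one). Both are shown for each of the 9 genes. Array medians lay between 6.25 and 6.27. A probe set was said to be called at an adjusted p under 0.05 in limma over all 14409 probe sets that passed a filter on low values. Hybridization controls, transcripts added in a fixed amount, read 10.20 to 10.43 on the 4 neighboring arrays of the fit and 10.42 to 10.84 on the 4 healthy ones (difference −0.37 on the log2 scale, two-sided exact permutation p = 0.0571, where 4 against 4 arrays cannot go below 0.0286). Their part in the results below was not tested beyond a fit with this signal as a covariate.

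Serine synthesis genes and MTHFD2 with MTHFD1L stood higher in neighboring glands, whereas MTHFD1, ALDH1L1 and SHMT2 showed little difference. All 15 probe sets passed the filter. Of these, 12 were called higher and 0 lower, against 17.7% called higher and 29.7% called in either direction among all 14409. They belonged to 6 genes, namely PHGDH, PSAT1, PSPH, MTHFD2, MTHFD1L and SHMT1. At the threshold of the study (adjusted p under 0.01 and over 2-fold) 8 probe sets were called higher, against 1.71% of all. With the hybridization controls as a covariate 5 were called higher, those of PHGDH and MTHFD2, against 1.05% of all. In that fit the median difference over the 15 was 1.10, and the standard error was larger at each of them. For MTHFD1L it was 0.27 in place of 0.15. With all 10 arrays, 9 were called higher and 0 lower, against 7.16% called higher and 12.5% called in either direction among all, and the 3 that dropped out were those of PSAT1. The median difference over the 15 probe sets was 1.06 on the log2 scale, where that over all tested probe sets was 0.03. These medians were 0.81 and 0.02 when all 10 arrays entered. Since the genes were chosen with this comparison known, nothing is read from these counts.

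**Figure D1:**
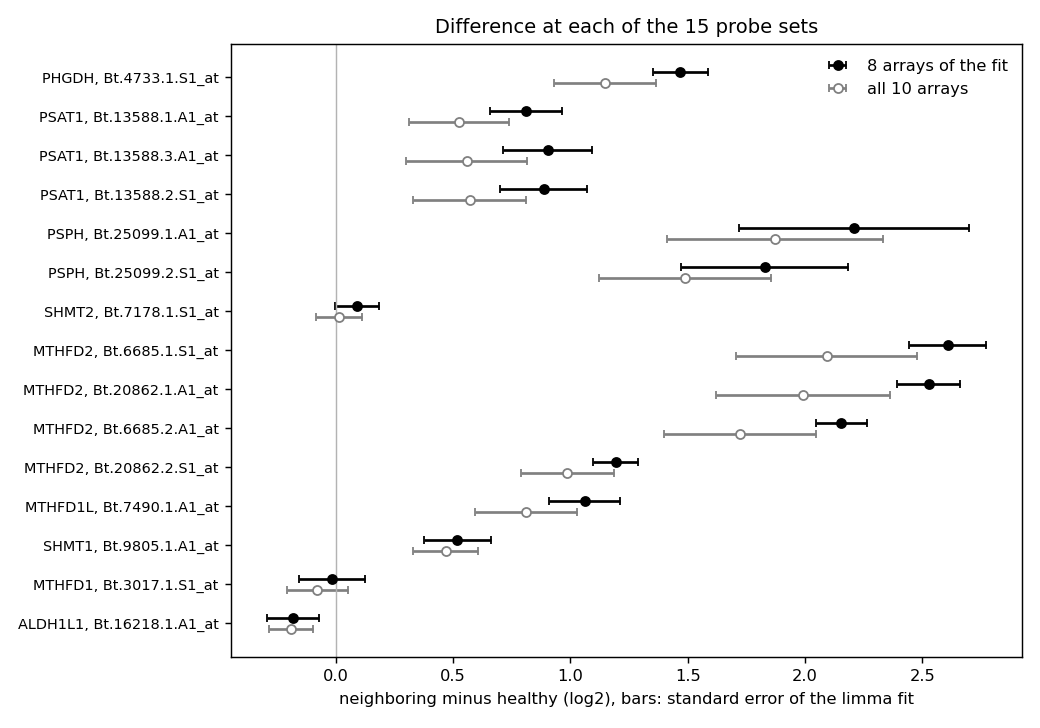
Difference between neighboring and healthy glands on the log2 scale (x axis) at each of the 15 probe sets (y axis), where filled symbols are fits to 8 arrays, open symbols fits to all 10, and bars the standard error. MTHFD2 reached 2.61, while MTHFD1, ALDH1L1 and SHMT2 lay between −0.18 and 0.09.

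PHGDH, the dehydrogenase that commits phosphoglycerate to serine, read 9.79, 9.69, 9.87 and 9.37 on neighboring 1 to 4 and 8.63 on neighboring 5, against 8.18, 8.19, 8.77, 8.28 and 8.19 on healthy 1 to 5. The 4 neighboring arrays of the fit lay above every healthy array, and neighboring 5 lay between healthy 4 and healthy 3. The difference was 1.47 ± 0.12 (SE), or 2.77-fold, with means of 9.68 ± 0.22 and 8.21 ± 0.05 (SD, n = 4 each) in neighboring and healthy glands. It was 1.15 ± 0.22 (2.22-fold) on all 10 arrays. The spread among the healthy arrays of the fit was the smallest of the 3 serine synthesis genes.

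PSAT1, the aminotransferase that follows PHGDH, read 11.78, 11.88, 11.57 and 11.39 on neighboring 1 to 4 and 10.79 on neighboring 5 at its brightest probe set, against 10.86, 10.55, 11.40, 10.78 and 11.20 on healthy 1 to 5. Healthy 3 was thus as high as neighboring 4, and neighboring 5 was within the healthy range. The difference was 0.81 ± 0.15 (SE), or 1.75-fold. The other probe sets gave 0.90 ± 0.19 and 0.89 ± 0.18. At them healthy 3 read 9.50 and 8.65, above neighboring 4 (9.12 and 8.53). It was above neighboring 3 (9.27) at the former and level with it (8.65) at the latter. Neighboring 5 read 8.67 and 7.97, again within the healthy range. On all 10 arrays the PSAT1 differences were 0.53 ± 0.21, 0.56 ± 0.26 and 0.57 ± 0.24.

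PSPH, the phosphatase of the last step, varied most between healthy cows. Its brightest probe set read 10.29, 10.13, 9.05 and 9.36 on neighboring 1 to 4 and 8.60 on neighboring 5, against 9.01, 6.50, 8.07, 7.70 and 6.79 on healthy 1 to 5. Healthy 1 lay just below neighboring 3 and above neighboring 5. The difference was 2.21 ± 0.49 (SE), or 4.62-fold, with a healthy SD of 1.13 (n = 4). The second probe set gave 1.83 ± 0.36 and ranked the 5 healthy arrays in the same order, from 7.57 on healthy 1 down to 5.97 on healthy 2. Over all 10 arrays the differences were 1.87 ± 0.46 and 1.49 ± 0.37. Neighboring 5 stood 1.10 above the healthy mean of the fit at the brightest probe set, further than at any other gene of the 9.

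**Figure D2:**
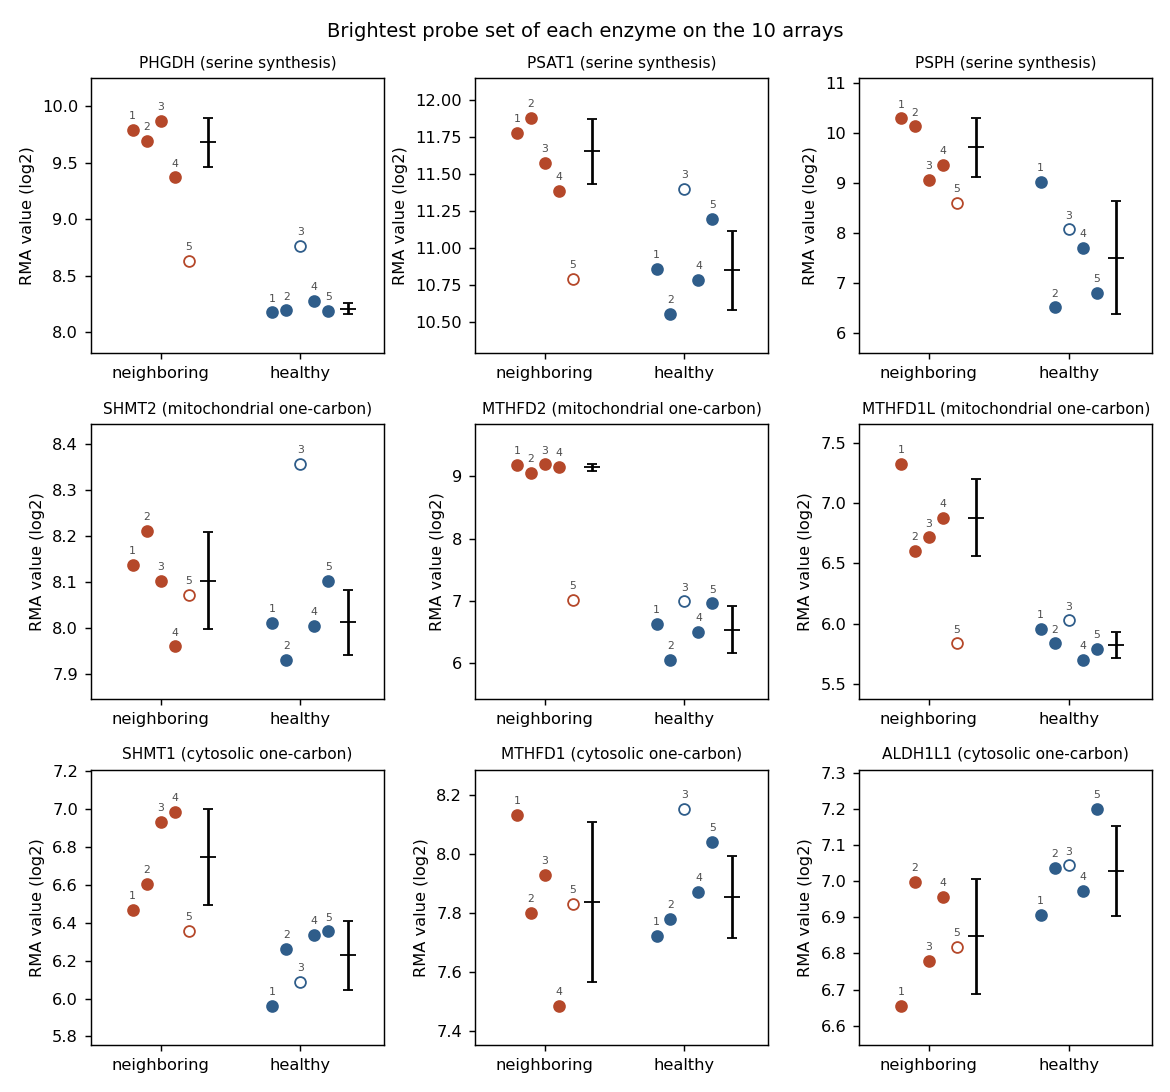
RMA values (log2, y axis) of the brightest probe set of each enzyme on the 10 arrays, with neighboring glands on the left and healthy glands on the right of each panel and array numbers above the points. Filled points are the 8 arrays of the fit, open points neighboring 5 and healthy 3, and bars the mean ± SD over the filled points. MTHFD2 averages 9.15 over neighboring 1 to 4 and 6.54 over the 4 filled healthy points, and reads 7.01 on neighboring 5.

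Of the mitochondrial enzymes MTHFD2, the methylene-folate dehydrogenase and cyclohydrolase, showed the largest difference of all 9 genes. Its brightest probe set read 9.18, 9.06, 9.19 and 9.15 on neighboring 1 to 4 and 7.01 on neighboring 5, against 6.64, 6.05, 6.99, 6.50 and 6.96 on healthy 1 to 5. The 4 neighboring arrays of the fit differed among themselves by little (SD 0.06, n = 4), and neighboring 5 barely exceeded the highest healthy array. The difference was 2.61 ± 0.16 (SE), or 6.10-fold, and 2.09 ± 0.39 on all 10 arrays. The other probe sets were higher by 2.53 ± 0.14, 2.16 ± 0.11 and 1.19 ± 0.10. The 4 probe sets of this gene thus ran from 2.29-fold to 6.10-fold.

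MTHFD1L, the mitochondrial formyl-folate synthetase that releases formate, read 7.33, 6.60, 6.72 and 6.88 on neighboring 1 to 4 and 5.84 on neighboring 5, against 5.96, 5.84, 6.03, 5.70 and 5.79 on healthy 1 to 5. Neighboring 5 was level with healthy 2. The healthy values lay close to the filter, which removed probe sets with a mean under 5.71, and the difference was 1.06 ± 0.15 (SE), or 2.09-fold. It was 0.81 ± 0.22 on all 10 arrays.

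SHMT2, which feeds the mitochondrial branch from serine, did not share this pattern. It read 8.14, 8.21, 8.10, 7.96 and 8.07 on neighboring 1 to 5, against 8.01, 7.93, 8.36, 8.004 and 8.10 on healthy 1 to 5. The highest value of all was that of healthy 3, and the groups overlapped. The difference was 0.09 ± 0.09 (SE), with a 95% interval of −0.11 to 0.30, and 0.02 ± 0.10 on all 10 arrays.

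Cytosolic one-carbon enzymes differed less. SHMT1, the cytosolic counterpart of SHMT2, read 6.47, 6.61, 6.93, 6.99 and 6.36 on neighboring 1 to 5, against 5.96, 6.26, 6.09, 6.33 and 6.35 on healthy 1 to 5. All 5 neighboring arrays lay above all 5 healthy arrays, but neighboring 5 did so by less than 0.01. The difference was 0.52 ± 0.14 (SE), or 1.43-fold, and 0.47 ± 0.14 on all 10 arrays. It was 0.46, 0.44 and 0.43 without neighboring 3, neighboring 4 or healthy 1, and 0.44 with neighboring 5 put back.

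MTHFD1, the cytosolic enzyme that joins formate to folate and interconverts its forms, read 8.13, 7.80, 7.93, 7.49 and 7.83 on neighboring 1 to 5, against 7.72, 7.78, 8.15, 7.87 and 8.04 on healthy 1 to 5. Its difference of −0.02 ± 0.14 (SE) had a 95% interval of −0.33 to 0.29. ALDH1L1 read 6.66, 6.999, 6.78, 6.96 and 6.82 on neighboring 1 to 5, against 6.91, 7.04, 7.04, 6.97 and 7.20 on healthy 1 to 5. It differed by −0.18 ± 0.11 (SE, 95% interval −0.43 to 0.06). The groups overlapped for both genes.

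Every neighboring array of the fit was above every healthy one at 12 of the 15 probe sets, against 18.4% of all tested probe sets. Over all 10 arrays this held for 2 probe sets, the brightest of MTHFD2 and that of SHMT1, against 3.80% of all. Neighboring 5 was the lowest neighboring array at 12 of the 15 probe sets (30.9% of all tested) and lay nearer to the healthy mean than to the neighboring mean at 12 (71.5% of all). Healthy 3 was the highest healthy array at 10 (31.9% of all). Averaged over the 3 serine synthesis genes, arrays neighboring 1 to 4 stood 1.77, 1.72, 1.31 and 1.19 above the healthy mean of the fit, and neighboring 5 stood 0.49 above it, close to healthy 1 (0.50) and healthy 3 (0.56). On neighboring 5 and healthy 1 PSPH deviated most (1.10 and 1.51), with 0.42 and −0.03 for PHGDH and −0.05 and 0.01 for PSAT1. Over SHMT2, MTHFD2 and MTHFD1L, neighboring 1 to 5 stood 1.43, 1.17, 1.21, 1.21 and 0.18 above the healthy mean of the fit. Over SHMT1, MTHFD1 and ALDH1L1 the 10 arrays lay between −0.17 and 0.18. Neighboring 4, the sample from a single untreated gland, was lowest of the 4 for the serine synthesis mean and in the middle for the mitochondrial mean. For PSPH neighboring 3 was lower than neighboring 4 (1.55 against 1.86 above the healthy mean of the fit). A part of the saline in this order was not tested.

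**Figure D3:**
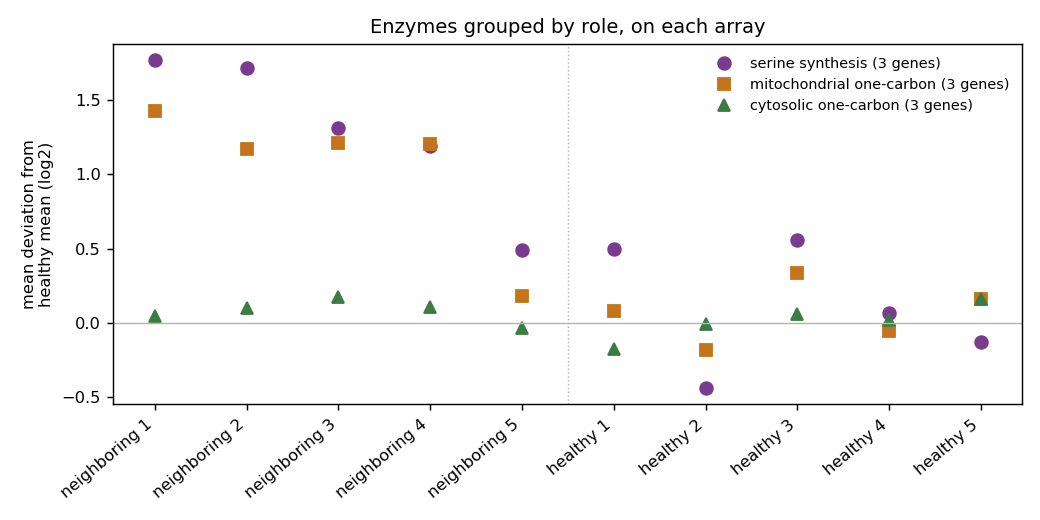
Mean deviation from the healthy mean of the fit (log2, y axis) on each array (x axis) for the 3 genes of serine synthesis (circles), the 3 mitochondrial genes SHMT2, MTHFD2 and MTHFD1L (squares) and the 3 cytosolic genes SHMT1, MTHFD1 and ALDH1L1 (triangles), each gene by its brightest probe set. Neighboring 5 lies at 0.49, 0.18 and −0.04, next to the healthy arrays.

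Further genes of serine, glycine and folate metabolism were examined with 4 transcription factors, as a list of 61. In this list 48 were on the array and 35 passed the filter. Of these 35, limma called 12 higher and 2 lower, where 20.2% of all 7055 tested genes rose and 11.5% fell. The median difference was 0.22, and that of all tested genes 0.06. On all 10 arrays 7 rose and 1 fell, where 8.26% of all tested genes rose and 5.02% fell. Both counts of genes that rose include 2 of the transcription factors, ATF4 and ATF5. The list was drawn up with results of these arrays known, and several of its members had been described before.

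Of 5 genes that use or break down serine, 4 rose, where 20.2% of all tested genes rose. SDS, which breaks serine down to pyruvate and ammonia, rose by 3.92 ± 0.20 on the log2 scale (SE, adjusted p = 5.60e-06), with 9.67, 9.60, 10.28, 9.19 and 6.61 on neighboring 1 to 5 and 5.92, 5.90, 5.98, 5.66 and 5.59 on healthy 1 to 5. The healthy values lay around the filter value of 5.71, with a mean of 5.77 over the 4 healthy arrays of the fit, so no fold is given. CBS, which joins serine to homocysteine, rose 2.57-fold (adjusted p = 9.46e-05), with means of 8.45 ± 0.18 and 7.09 ± 0.13 (SD, n = 4 each) in neighboring and healthy glands, and it read 7.48 on neighboring 5 and 7.49 on healthy 3. GLYCTK, a glycerate kinase, rose 1.66-fold and SPTLC2, a subunit of serine palmitoyltransferase, 1.38-fold, whereas SPTLC1, its partner subunit, differed by 0.08 ± 0.20 (SE, adjusted p = 0.775). GLYCTK and SPTLC2 were not called on all 10 arrays (limma, adjusted p = 0.113 and 0.130).

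Of 6 genes of glycine cleavage and use, 1 was higher, 1 lower and 4 missed the threshold, shares near those of all tested genes (20.2% rose and 11.5% fell). AMT, the aminomethyltransferase of the glycine cleavage system, fell by 0.55 ± 0.12 (SE, adjusted p = 0.00762), while its partners GCSH and DLD differed by 0.28 ± 0.17 and 0.06 ± 0.11 and were not called. GNMT, which methylates glycine, rose by 0.58 ± 0.14 (SE, adjusted p = 0.0136). Both calls held on all 10 arrays (limma, adjusted p = 0.0276 and 0.0277).

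Among folate-converting enzymes 3 of 4 rose, where 20.2% of all tested genes rose. They were ALDH1L2, the mitochondrial counterpart of ALDH1L1 (0.59 ± 0.13 on the log2 scale, SE, adjusted p = 0.00887), MTFMT, which formylates the mitochondrial initiator tRNA (1.46-fold, adjusted p = 0.00396), and TYMS, the thymidylate synthase (1.39-fold, adjusted p = 0.0238). ALDH1L2 and MTFMT were also called on all 10 arrays, but TYMS was not (adjusted p = 0.310). ALDH1L2 averaged 7.02 ± 0.22 in neighboring and 6.43 ± 0.17 in healthy glands (SD, n = 4 each), and its change differed in direction from the −0.18 of ALDH1L1, a difference between the 2 genes that was not tested. Of 3 genes of folate transport and storage 1 fell, where 11.5% of all tested genes fell. It was the folate receptor FOLR2 (by 0.87 ± 0.14, SE, adjusted p = 0.00186), which is known from macrophages. Its call was lost on all 10 arrays (adjusted p = 0.0613).

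MAT2B, a regulatory subunit of methionine adenosyltransferase, was the 1 gene of 6 to rise in the methionine and choline cycle (1.52-fold, adjusted p = 0.00872, but 0.0763 on all 10 arrays). Among all tested genes 20.2% rose. Both folate-dependent purine enzymes, GART and ATIC, missed the threshold, with differences of 0.22 ± 0.14 and 0.12 ± 0.13 (SE). Among transporters of serine and glycine 1 of 5 rose, a share near the 20.2% of all tested genes. It was the neutral amino acid carrier SLC1A4 (1.84-fold, adjusted p = 0.00124, but 0.0650 on all 10 arrays). Among 4 transcription factors known for the stress and growth response, ATF5 rose 7.10-fold (adjusted p = 5.60e-06) and ATF4, a known activator of serine synthesis genes and MTHFD2, 1.87-fold (adjusted p = 0.00176), while MYC (0.56 ± 0.20, SE, adjusted p = 0.0541) and NFE2L2 (0.12 ± 0.13) were not called. ATF5 read 9.54 on neighboring 5, above all healthy arrays.

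**Figure D4:**
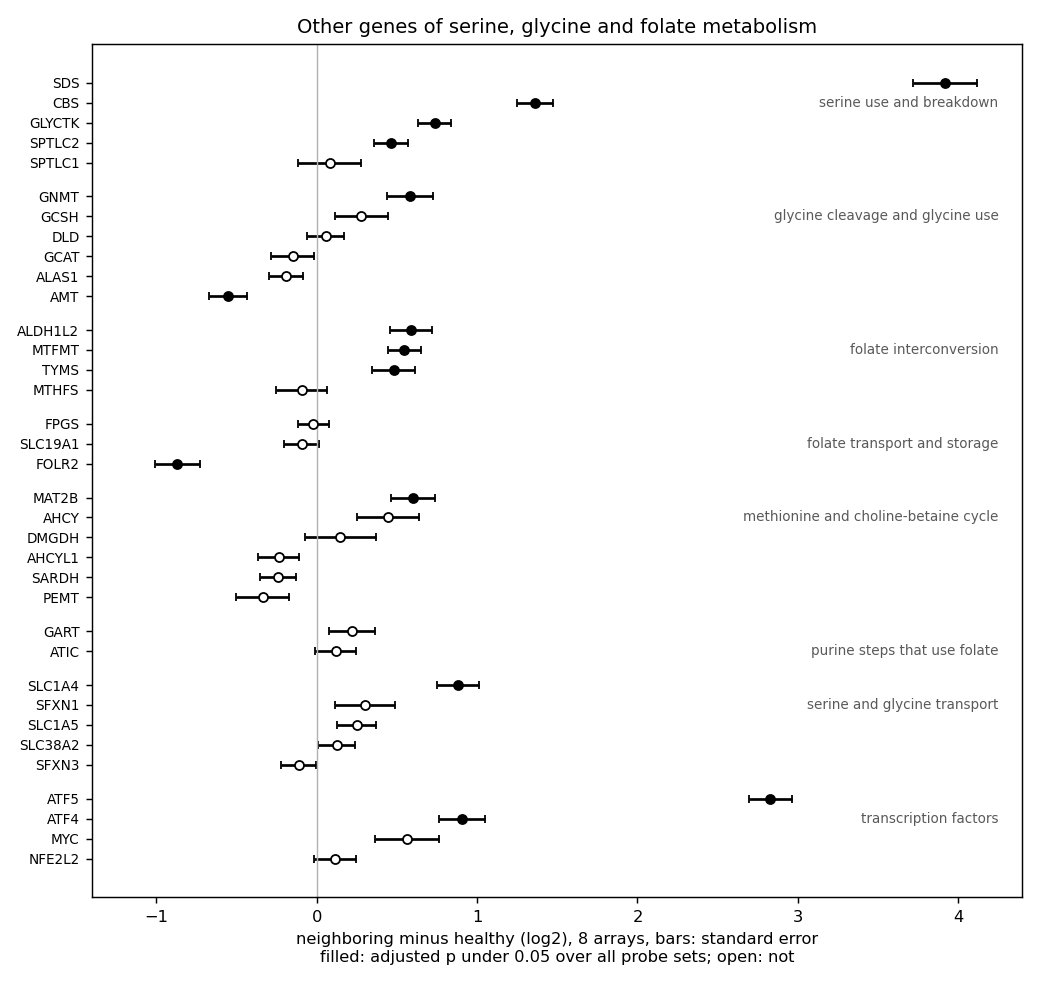
Difference between neighboring and healthy glands on the log2 scale (x axis, 8 arrays, bars are standard errors) for 35 further genes, by role. They are the genes of serine, glycine and folate metabolism that passed the filter, and 4 transcription factors. Filled points passed an adjusted p of 0.05 over all probe sets, 12 of them higher and 2 lower. SDS stands at 3.92 and FOLR2 at −0.87.

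The genes whose course over the 10 arrays was nearest to that of a member were found by the root mean square difference of log2 values, each gene centred on its healthy mean. Nearest to MTHFD2 were PCK2 (0.23), GSS (0.40) and GARS1 (0.40). Nearest to PSAT1 were RAB31 (0.12), GCLM (0.14) and MARS1 (0.17). Nearest to PHGDH were CBS (0.14), SARS1 (0.16) and MPZL3 (0.22). On neighboring 5 the 3 genes nearest to MTHFD2 stood 0.29, 0.11 and 0.37 above their healthy means, where MTHFD2 stood 0.38 above its own. Neighboring 5 was among the 10 arrays used to choose these genes, so likeness on it was built in and nothing is read from it.

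Markers of several cell types differed between the groups, and those of others missed the threshold. Luminal epithelium was clearly present, with the casein CSN2 at 14.77 ± 0.02 and 14.68 ± 0.06 (SD, n = 4 each) in neighboring and healthy glands. Of its 6 tested markers EPCAM and KRT19 rose and 0 fell, while ELF5, LALBA and CSN2 differed by −0.11 ± 0.10, −0.09 ± 0.08 and 0.09 ± 0.08 (SE). Of 6 myoepithelial markers 4 fell, of 6 fibroblast markers 3 fell and 1 rose, of 5 macrophage markers 3 fell, of 4 T cell markers 3 fell, and the single tested adipocyte marker, FABP4, fell. Among all tested genes 20.2% rose and 11.5% fell. On all 10 arrays the falls numbered 2 for myoepithelium, 4 for fibroblasts, 2 for macrophages, 0 for T cells and 0 for adipocytes. In that fit 1 luminal marker and 1 fibroblast marker (PDGFRA) rose, where 8.26% of all tested genes rose and 5.02% fell. None of 3 endothelial, 2 B and plasma cell and 2 proliferation markers (CDK1 and PCNA) passed in limma on 8 or on 10 arrays. At an unadjusted limma p under 0.05, 3 of these 7 did on 8 arrays (PECAM1, TEK and PCNA) and 1 on all 10. The share of all tested genes past this looser threshold was not taken, so nothing is read from these counts. The neutrophil genes S100A8 and S100A12 averaged 8.01 and 7.53 in neighboring glands, against 5.59 and 5.54 in healthy glands. Their healthy means were below the filter value, so both passed the filter only through the neighboring arrays, and they are given as values.

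Summed over the tested markers, luminal log2 values ran from 72.5 to 74.5 on neighboring 1 to 4 and from 70.2 to 71.5 on the healthy arrays of the fit, with 71.6 on neighboring 5 and 72.2 on healthy 3. The fibroblast sum ran from 52.9 to 57.5 on these neighboring and from 58.3 to 60.8 on these healthy arrays, with 56.5 on neighboring 5 and 61.3 on healthy 3. The myoepithelial sum ran from 54.9 to 58.4 on the neighboring and from 59.4 to 63.2 on the healthy arrays, with 59.3 on neighboring 5 and 61.0 on healthy 3. These 3 sums did not overlap between the arrays of the fit, and neither did the macrophage sum below or FABP4, the single adipocyte marker. FABP4 read 11.3 to 11.9 on neighboring 1 to 4 and 12.6 to 13.0 on the healthy arrays of the fit. On neighboring 5 it read 12.8 and on healthy 3 11.7, each within the range of the other group. The neutrophil sum is not sorted here, as both genes passed the filter only through the neighboring arrays. The T cell, endothelial, B and plasma cell and proliferation sums overlapped. Of all tested probe sets, 18.4% had every neighboring array of the fit above every healthy one. No such share was taken for sums of markers or for the opposite direction, that of the fibroblast, myoepithelial and macrophage sums and FABP4. Nothing is therefore read from the lack of overlap. The macrophage sum ran from 38.4 to 40.9 on the neighboring and from 42.4 to 43.4 on the healthy arrays, with 41.1 on neighboring 5 and 41.0 on healthy 3. The sum of the 2 neutrophil genes ran from 14.3 to 17.3 on the neighboring and from 10.6 to 11.6 on the healthy arrays, with 16.3 on neighboring 5 and 9.44 on healthy 3. The part of cell composition in the enzyme differences was not tested, and in whole tissue fewer cells of a type and less RNA per cell cannot be told apart.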

How the data were processed

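RNA had been extracted with TRIzol and labelled with the MessageAmp II kit. The deposited values are log2 intensities, which the authors computed with RMA (background correction, quantile normalization, summary over probes); its version is not given in the sources used here. Arrays were grouped by title, since the source field of the healthy arrays repeats that of the neighboring ones. Probe sets were named through the platform annotation, and 13263 of 13292 with a single symbol matched the reference gene table; 112 array controls were left out. No sequences or coordinates are given.

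Present calls need probe-level data not used here, so probe sets whose 10-array mean fell in the lowest 40% (under 5.71) were dropped, leaving 14409. limma 3.58.1 in R 4.3.3 (lmFit, eBayes) compared the groups on 8 arrays, with Benjamini-Hochberg adjustment over all kept probe sets. A gene with several probe sets was counted by its brightest. Named were the 9 members, other pathway genes that passed (up to 4 per sub-list and direction) and the 3 nearest genes of MTHFD2, PSAT1 and PHGDH. The members and lists were chosen with earlier results of these data known. Arrays came from separate cows. The number of arrays limits the precision. In simulated data, 4 against 4 arrays with 200 of 14409 probe sets changed, 91% of 2-fold and 98% of 4-fold changes were called, with 12 unchanged ones. Far fewer probe sets changed there than the 29.7% called in the real fit, so these figures do not describe that fit. Alternatives covered the arrays, filter, scaling, variance model, array weights, threshold, probe set per gene, hybridization controls as a covariate, replicate number as a block and leaving out each array.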

Additional observations from a re-analysis of the deposited data

Results flagged for a closer look

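In 30 groups of 5 arrays (15 probe sets in both conditions), 5 held a single array far from the other 4 by Dixon's criterion, which chance meets in about 1 of 20 groups, and groups of 1 gene or array are not independent. All 4 MTHFD2 probe sets had neighboring 5 apart from the other neighboring arrays, at 7.01, 6.73, 6.64 and 6.19, where the next lowest arrays read 9.06, 8.70, 8.33 and 7.17. For PHGDH healthy 3 stood apart at 8.77, with the next highest healthy array at 8.28. These are the 2 arrays that the study set aside.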

How the results depend on the processing

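With the hybridization controls as a covariate, 5 member probe sets (PHGDH and the 4 of MTHFD2) and 2 member genes were called higher, in place of 12 and 6. Among all probe sets 1.05% were called higher, in place of 17.7%. The median difference over the member probe sets was then 1.10. Under that covariate 5 other pathway genes were higher (SDS, CBS, SLC1A4, ATF4 and ATF5) and 0 lower. Other pathway genes higher numbered 7 on all 10 arrays, 7 with neighboring 5 put back, 8 with the replicate block and 3 at the threshold of the study. Among all probe sets 7.16%, 5.16%, 5.9% and 1.71% were called higher in these settings. Other pathway genes lower numbered 1 on all 10 arrays and 0 at that threshold, against 5.37% and 1.05% of all probe sets. The median difference over the member probe sets was 0.81 on all 10 arrays, 0.85 with neighboring 5 put back and 0.87 with array weights. Leaving out 1 array at a time gave medians of 0.91 (without neighboring 1) to 1.15, 11 to 12 member probe sets higher, 0 lower, 5 to 6 member genes higher, and 11 to 13 other genes higher and 2 to 3 lower. In those fits 12.5% to 17.7% of all probe sets were called higher and 8.34% to 11.8% lower. The difference of the hybridization controls was −0.29 on all 10 arrays (two-sided exact permutation p = 0.0397). Over the 15 member probe sets and 19 alternatives, 267 of 285 values stayed on their side of the threshold and 18 fell below it, 7 of them under the covariate. SHMT1 did so with neighboring 5 put back (0.44) and without neighboring 3 (0.46), neighboring 4 (0.44) or healthy 1 (0.43). A sign changed in 3 of the 285, all of MTHFD1 and none called. The cause was not tested.

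With the replicate number as a block, 11 member probe sets were called higher (without SHMT1), 5 member genes, and 8 other genes higher and 2 lower. Among all probe sets 5.9% were called higher and 4.38% lower in that fit. Same-numbered cows are different animals, and their deviations correlated at −0.19 to 0.17 across probe sets, so the numbers were not taken to pair the arrays. The number of arrays limits the precision, and the 95% intervals of SHMT2, MTHFD1 and ALDH1L1 all held 0.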
